A study of Mus musculus with 19 samples.

Results

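Melanocytes make the pigment melanin inside organelles called melanosomes, and in mouse back skin nearly all of them sit in the hair follicles, where pigment is made while the hair grows. The melanin enzymes, the melanosome matrix and membrane proteins and the pigment transporters are switched on by the transcription factor Mitf, which is itself a target of Sox10, while the receptor Kit carries survival and migration signals from the ligand Kitl. Expression of 10 such genes, Tyr, Tyrp1, Dct, Pmel, Mlana, Slc45a2, Oca2, Mitf, Sox10 and Kit, was followed library by library in mouse skin tumours and normal skin. The genes were chosen by symbol, from the Ensembl identifier of each row, out of 34807 genes in the table. All 10 were present and all 10 passed the filter on low counts.

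Bulk poly(A) RNA sequencing was done on 15 tumours and 4 samples of normal skin, 1 library each. The tumours carried BRAF V600E, an activated kinase of the MAPK pathway, recombined by a tamoxifen-inducible Cre (CreERT2) in female mice, with an age of 7 to 20 weeks given for induction. The Ivl promoter, that of a gene of differentiating keratinocytes, drove Cre in 6 tumours, the Krt5 promoter (K5) in 5 and the Krt14 promoter (K14) in 4, the latter both being promoters of basal keratinocytes. Normal skin was wild type. Per the methods of the study, mice were on a C57BL/6J background, whose coat is black, the drug was painted on shaved backs, as tamoxifen for Ivl mice and as 4-hydroxytamoxifen for K5 and K14 mice, and K5 and K14 tumours were merged for comparison. Promoter, drug and time to a tumour therefore differ together between Ivl and K5/K14 tumours and cannot be told apart. The study also found Ivl lesions on the back, paws, ears and lips, but K5 and K14 tumours only on the back. The body site of each sequenced tumour is not given in the sources used here, so site may differ between these groups as well. The hair cycle stage of each sample is not given in the sources used here. Keratinocyte identity was clear, with a summed level of 12 keratinocyte markers of 45876 to 112942 CPM (counts scaled to library size with the trimmed mean of M values) in tumours and 9236 to 17494 CPM in skin. In bulk tissue, fewer cells of a type and less RNA per cell cannot be told apart, and this holds for every value below.

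Total counts lay between 45715309 and 72609771 per library, and 3242 to 3670 genes had a count of 0 in skin against 5562 to 10882 in tumours. Ivl tumours 1, 2 and 3 and K5 tumour 1 stood apart. The authors had adjusted the counts for a sequencing batch, and the mean of these 4 libraries differed by at most 0.1 log2 from that of the remaining 15, which include skin, for 96.6% of 13954 genes and for 8 of the 10 pigment genes. The labels do not give the batch. For this comparison and the means that follow, counts were divided by library totals alone, without the trimmed mean scaling used elsewhere. The 13954 genes were those that passed a floor of 2 CPM. For Tyrp1 the mean was 13.5 CPM in these 4 tumours, 14.3 CPM in the other 15 libraries and 2.25 CPM in the 11 tumours among those 15. For Dct the same means were 19.9, 21.2 and 4.03 CPM, and for Mitf 13.5, 14.3 and 4.15 CPM. With the trimmed mean scaling, the means of the 11 tumours were 2.52 CPM for Tyrp1, 4.53 CPM for Dct and 4.77 CPM for Mitf. On library totals, the mean level of the 4 libraries thus lay at that of a mixture with skin. It was several times above that of the other tumours. The part of the adjustment in the pigment values of these 4 libraries was not tested. For this reason each comparison was run on all 19 libraries and on the remaining 15 alone, which hold 3 Ivl, 4 K5 and 4 K14 tumours and the 4 skin samples.

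Upstream sequences of the melanin enzyme genes are shown first because these genes move together below and share a short motif there. Windows were 250 bases before the RefSeq start of each gene (GRCm38.p6). Of the 10 genes, 6 had a window (Tyr, Tyrp1, Dct, Oca2, Mitf and Kit), and Pmel, Mlana, Slc45a2 and Sox10 had none in the table used. Capitals mark CATGTG on either strand, the core of the M-box known from melanocyte promoters. Tyr lies on the minus strand (chr7:87493513-87493762), Tyrp1 on the plus strand (chr4:80833963-80834212) and Dct on the minus strand (chr14:118052247-118052496).
Tyr: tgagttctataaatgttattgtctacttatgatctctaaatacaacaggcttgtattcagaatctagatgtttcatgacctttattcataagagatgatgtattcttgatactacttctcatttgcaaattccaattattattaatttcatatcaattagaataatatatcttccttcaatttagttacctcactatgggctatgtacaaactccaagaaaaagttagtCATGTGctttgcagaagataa
Tyrp1: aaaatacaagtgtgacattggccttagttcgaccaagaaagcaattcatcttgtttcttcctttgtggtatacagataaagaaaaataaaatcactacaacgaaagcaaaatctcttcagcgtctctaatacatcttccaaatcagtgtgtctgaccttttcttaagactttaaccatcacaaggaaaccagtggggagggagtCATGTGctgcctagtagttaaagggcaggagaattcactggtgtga
Dct: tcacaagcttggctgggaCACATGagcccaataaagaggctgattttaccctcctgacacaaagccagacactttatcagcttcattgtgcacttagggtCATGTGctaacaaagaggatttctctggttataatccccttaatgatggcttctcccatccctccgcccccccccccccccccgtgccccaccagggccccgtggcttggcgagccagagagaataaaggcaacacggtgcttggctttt
The longest run around CATGTG shared by Tyr and Tyrp1 was the 11-base M-box AGTCATGTGCT. It lay in Tyr, 24 to 14 bases before the RefSeq start, and in Tyrp1, 49 to 39 bases before the RefSeq start. The Tyrp1 gene interval given below begins at 80834123, inside the window, so the Tyrp1 match lies within that interval. On either strand the M-box was present in 7 of 32851 windows of all genes (0.0213%). These 7 include the Tyr and Tyrp1 windows from which the run was taken, so its presence in both was fixed in advance. CATGTG alone, which lies inside that motif, was found in Tyr, Tyrp1, Oca2 and at 2 places in Dct, against 12.3% of all windows. The E-box CACGTG (6.02% of windows) and the SOX-type AACAATG (3.29%) were found in no member window, and the shorter ACAAAG (16.5% of windows, either strand) was found in Tyrp1, Oca2 and at 2 places in Dct. These matches describe letters in the windows and no binding was measured.

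The melanosome genes were highest in skin 1 and varied widely in every group. Summed over the 7 genes that encode melanosome proteins (Tyr, Tyrp1, Dct, Pmel, Mlana, Slc45a2 and Oca2), the 4 skin samples held 344, 19.1, 92.1 and 27.2 CPM in order of replicate number. The 6 Ivl tumours held 3.06, 58.3, 9.98, 10.3, 11.3 and 10.7 CPM. The K5 tumours held 177, 10.03, 17.6, 21.3 and 16.4 CPM, and the K14 tumours 39.5, 8.41, 4.74 and 4.76 CPM. K5 tumour 1 lay above 3 of the 4 skin samples, Ivl tumour 2 and K14 tumour 1 above 2 and K5 tumour 4 above 1, so tumours and skin overlapped. Of these tumours, K5 tumour 1 and Ivl tumour 2 belong to the 4 libraries that stood apart, and K14 tumour 1 and K5 tumour 4 do not. Skin 1 was the highest of all 19 libraries for 9 of the 10 genes, all but Mitf, and K5 tumour 1 was the highest tumour for 7.

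**Figure D1:**
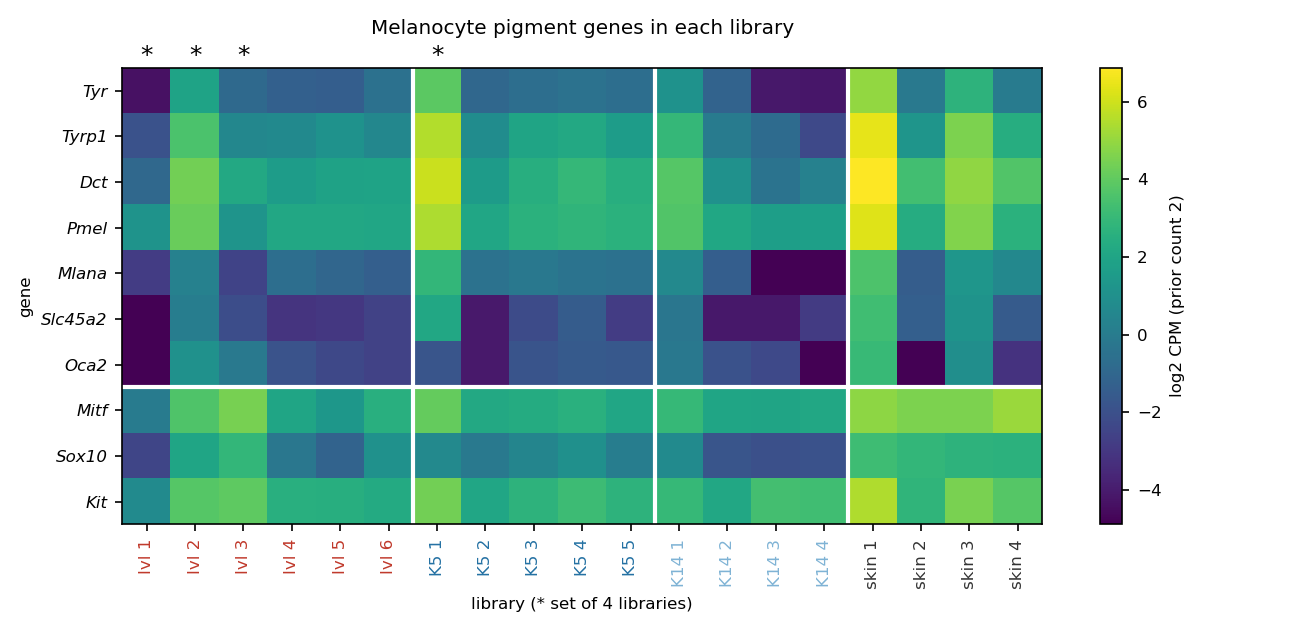
Heat map of log2 CPM (prior count 2) of the 10 genes (rows) in the 19 libraries (columns, grouped as Ivl, K5 and K14 tumours and skin). Asterisks mark the 4 libraries that stood apart. The upper 7 rows are melanosome genes and brighten together in skin 1 (sum 344 CPM) and skin 3 (92.1 CPM), while Mitf and Sox10 are even across skin. In K5 tumour 1 (177 CPM) the melanosome genes are bright except Oca2 (0.254 CPM).

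Tyr encodes tyrosinase, which catalyses the first and rate-limiting step of melanin synthesis (ENSMUSG00000004651, GRCm38 chr7:87424771-87493512). Its level was 31.7, 0.866, 6.47 and 0.975 CPM in skin 1 to 4. It was 15.1, 0.481, 0.610, 0.700 and 0.605 CPM in K5 tumours 1 to 5 and 2.15, 0.415, 0.0240 and 0.0209 CPM in K14 tumours 1 to 4. Ivl tumours ranged from 0.0154 CPM in tumour 1 over a median of 0.449 CPM to 3.83 CPM in tumour 2. One library thus carried most of each group, with 86.3% of the summed K5 level in K5 tumour 1, 82.4% of the K14 level in K14 tumour 1, 66.4% of the Ivl level in Ivl tumour 2 and 79.2% of the skin level in skin 1. The K5 mean of 3.49 ± 6.47 CPM (SD, n = 5) became 0.599 CPM without K5 tumour 1, beside medians of 0.449 CPM in Ivl and 0.219 CPM in K14 tumours. The lowest value, in Ivl tumour 1, was 1 count.

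Tyrp1 and Dct encode the tyrosinase-related enzymes that act later in melanin synthesis. Tyrp1 (chr4:80834123-80851719) held 86.1, 2.34, 23.6 and 5.47 CPM in skin 1 to 4, and 46.1, 1.72, 3.93, 4.62 and 2.98 CPM in K5 tumours 1 to 5. In K14 tumours 1 to 4 it held 7.66, 0.968, 0.551 and 0.167 CPM, and in Ivl tumours 0.231 CPM at the lowest, 1.51 CPM at the median and 11.8 CPM at the highest. Tumours above the lowest skin sample numbered 6 of 15, or 4 of the 11 outside the set. Dct (chr14:118012790-118052244) held 117, 9.93, 30.6 and 12.7 CPM in skin 1 to 4, and 60.7, 2.96, 5.62, 7.603 and 5.57 CPM in K5 tumours 1 to 5. In K14 tumours 1 to 4 it held 13.6, 2.07, 0.719 and 1.19 CPM, and in Ivl tumours it ranged from 0.492 CPM over a median of 3.72 CPM to 20.6 CPM. K5 tumour 1, Ivl tumour 2 and K14 tumour 1, in that order, were the highest tumours for each of the 3 enzymes, and skin 2 was the lowest skin sample.

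Pmel forms the fibrils on which melanin is laid down, and Mlana is a melanosome membrane protein. Pmel (chr10:128704195-128720238) held 79.5, 5.28, 25.0 and 6.17 CPM in skin 1 to 4, and 42.7, 4.13, 6.19, 7.02 and 6.16 CPM in K5 tumours 1 to 5. In K14 tumours it held 12.9, 4.36, 3.26 and 3.28 CPM, and in Ivl tumours 2.21 CPM at the lowest, 4.28 CPM at the median and 17.9 CPM at the highest. Pmel thus kept a level of several CPM where Tyr was near 0. Its share of the 7-gene sum was 72.4% in Ivl tumour 1, 68.7% in K14 tumour 3 and 68.9% in K14 tumour 4, against 22.7% to 27.6% in the skin samples and 24.2% in K5 tumour 1. Pmel shares 105 exon bases with Dgka and 34 with Cdk2, both on the opposite strand and expressed in tumours at medians of 122 and 36.2 CPM, and since the use of strand in counting is not stated, reads of these genes cannot be told apart from those of Pmel there. Mlana (chr19:29697824-29708634) held 11.97, 0.337, 2.42 and 1.47 CPM in skin 1 to 4 and 7.40 CPM in K5 tumour 1, with 0.670 to 0.835 CPM in the other K5 tumours. K14 tumour 1 held 1.53 CPM and K14 tumour 2 held 0.346 CPM, and K14 tumours 3 and 4 had no count. Ivl tumours ranged from 0.108 to 1.18 CPM.

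Slc45a2 and Oca2 encode melanosome transporters that set the acidity needed by tyrosinase. Slc45a2 (chr15:11000721-11029233) held 9.64, 0.360, 2.18 and 0.322 CPM in skin 1 to 4, 4.40 CPM in K5 tumour 1 and 1.05 CPM in Ivl tumour 2. All other tumours lay between 0 and 0.784 CPM. Oca2 (chr7:56239760-56536518) was the exception to the order of the tumours. It held 8.27, 0, 1.88 and 0.0780 CPM in skin 1 to 4, 2.04 CPM in Ivl tumour 2 and 0.254 CPM in K5 tumour 1, a value inside the range of the other K5 tumours (0.0253 to 0.303 CPM). K5 tumour 1, the highest tumour for the other 6 melanosome genes, was therefore not high for Oca2. Slc24a5, another melanosome transporter, was likewise at 0.461 CPM in K5 tumour 1, 3.27 CPM in Ivl tumour 2 and 7.27 CPM in skin 1. Other genes of the lists below differed in this. In K5 tumour 1 Trpm1 held 8.67 CPM (1.32 to 2.54 CPM in the other K5 tumours) and Mc1r 1.53 CPM (at most 0.316 CPM). Gpr143 held 0.302 CPM there (at most 0.130 CPM in the others), whereas Gpnmb, at 28.1 CPM, was inside their range (21.5 to 54.4 CPM).

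Per kilobase of exon, which allows genes to be compared, Pmel ranked first in skin 1 at 34.7 CPM per kb. It was followed by Tyrp1 at 30.4, Dct at 19.9 and Mlana at 11.3 CPM per kb. Kit, Mitf and Tyr lay at 4.96, 4.79 and 4.45 CPM per kb, and Slc45a2, Sox10 and Oca2 at 3.23, 3.05 and 2.09 CPM per kb. These are levels in 1 sample and their order was not tested.

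Mitf, the master regulator of the melanocyte lineage, separated skin from tumours more cleanly than the genes it regulates (chr6:97807052-98021349). It held 29.7, 23.4, 23.1 and 34.2 CPM in skin 1 to 4, which lay within a ratio of 1.48 of each other, whereas Tyr in the same samples spanned a ratio of 36.6. In K5 tumours 1 to 5 it held 16.98, 4.61, 5.12, 5.85 and 4.23 CPM and in K14 tumours 1 to 4 it held 7.98, 4.06, 3.86 and 4.47 CPM. Ivl tumours ranged from 0.953 CPM in tumour 1 over a median of 4.90 CPM to 22.2 CPM in tumour 3. Mitf was the only gene of the 10 for which every tumour lay below every skin sample. The gap was narrow for Ivl tumour 3 (22.2 against 23.1 CPM), and outside the set of 4 the highest tumour held 7.98 CPM. Mitf is also transcribed in mast cells and macrophages.

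Sox10, the neural crest factor of melanocytes and Schwann cells, was as even in skin as Mitf (chr15:79154908-79165240). It held 9.31, 7.45, 6.63 and 6.27 CPM in skin 1 to 4. K5 tumours 1 to 5 held 1.51, 0.886, 1.35, 1.96 and 1.04 CPM, and K14 tumours 1 to 4 held 1.61, 0.254, 0.216 and 0.230 CPM. K5 tumour 1, first among tumours for the melanin enzymes, was thus not set apart from the other K5 tumours by Sox10. Ivl tumours ranged from 0.154 CPM in tumour 1 over a median of 1.43 CPM to 7.43 CPM in tumour 3, the one tumour inside the skin range.

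Kit, the receptor for Kitl, marks melanocytes and mast cells (chr5:75574916-75656722). It held 44.2, 7.00, 22.5 and 13.7 CPM in skin 1 to 4, and 20.5, 4.23, 6.59, 8.91 and 6.46 CPM in K5 tumours 1 to 5. K14 tumours 1 to 4 held 7.86, 4.45, 10.1 and 9.69 CPM and Ivl tumours 1.66 CPM at the lowest, 5.65 CPM at the median and 15.7 CPM at the highest. Unlike the melanosome genes, Kit was higher in K14 tumours 3 and 4 than in K14 tumour 1. The share of the group's summed level in its highest library was 31.4% to 50.6%, lower than the 66.4% to 86.3% of Tyr.

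**Figure D2:**
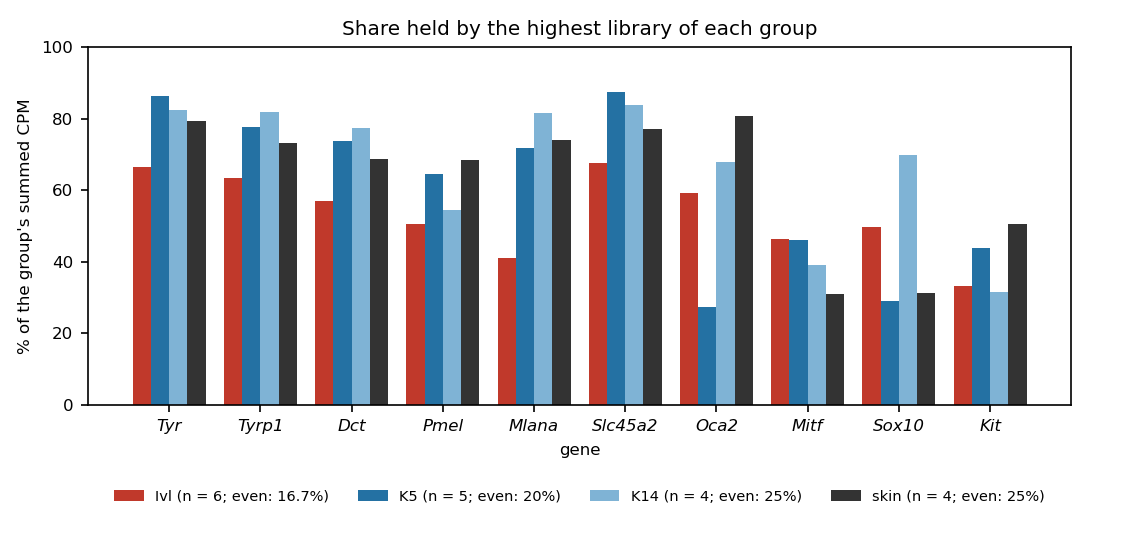
Share of each group's summed CPM that its highest library holds, in percent, for each gene and group (bars, from 0). The share of Tyr was 86.3% in K5, 82.4% in K14, 79.2% in skin and 66.4% in Ivl samples, and that of Kit was at most 50.6%.

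Against skin, every pigment gene had a lower mean in Ivl tumours, and how many passed the test depended on the 4 libraries. In the test over all 19 libraries (edgeR quasi-likelihood, p-values adjusted over 32031 genes by the Benjamini-Hochberg method), 3 of 10 fell, against 35.9% of all genes changed and 15.5% lowered. Mitf fell by 1.79 ± 0.61 on the log2 scale (SE, adjusted p = 0.0285, edgeR), Kit by 1.47 ± 0.55 (adjusted p = 0.0438) and Pmel by 2.29 ± 0.86 (adjusted p = 0.0452). The other 7 had log2 fold changes between -3.57 and -1.57 and adjusted p-values of 0.0589 to 0.186, and 8 of the 10 had an unadjusted p under 0.05. The median over the 10 was -2.56, beside -0.46 over all genes. Within the 15 libraries 8 of 10 fell, against 54.9% of genes changed and 32.7% lowered there, and the median was -3.33 beside -0.66. Mitf then fell by 2.75 ± 0.31 (adjusted p = 3.45e-06, edgeR), Dct by 3.61 ± 1.09 (adjusted p = 0.0137), Tyr by 4.41 ± 1.49 (adjusted p = 0.0232) and Slc45a2 by 4.89 ± 1.45 (adjusted p = 0.0110). Mlana (-3.06, adjusted p = 0.0680) and Oca2 (-3.82, adjusted p = 0.0694) did not pass.

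The count over all 19 moved with the library left out. It was 8 without Ivl tumour 2 or without K5 tumour 1, 1 without Ivl tumour 1, K5 tumour 3, 4 or 5 or skin 3, 2 without skin 4, and 0 without Ivl tumour 4, 5 or 6 or skin 1. The share of all genes lowered, 15.5% over all 19, moved as well. It was 21.9% without Ivl tumour 2 and 15.9% without K5 tumour 1. It was 9.87% to 9.99% without Ivl tumour 4, 5 or 6 and 11.5% without skin 1 or skin 3. Without Ivl tumour 3 it was 24.8%, while the count stayed at 3. The counts of 0 thus came with a smaller share of all genes lowered. Without skin 1 the median log2 fold change over the 10 was -1.53 in place of -2.56. Pmel was then at -1.03 (adjusted p = 0.333, edgeR), Tyr at -1.51, Tyrp1 at -1.74, Dct at -1.55, Oca2 at -0.16 (adjusted p = 0.930) and Kit at -0.87 (adjusted p = 0.230), while Mitf was at -1.75 (adjusted p = 0.0541) and had changed little. Within the 15 libraries, leaving out skin 1 as well, a choice made after the data were seen, left 6 of 10 lowered beside 31.6% of all genes, with a median of -2.49. Tyr (-2.59, adjusted p = 0.0823, edgeR), Tyrp1, Mlana and Oca2 did not pass there. Values did not overlap for 1 gene, Mitf, over all 19 libraries (9.01% of all genes were lower without overlap) and for 8 genes within the 15 (35.5% of all genes).

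Against skin, K5/K14 tumours gave 4 of 10 genes that fell over all 19 libraries and 10 of 10 within the 15. The share of all genes changed was 62.2%, with 38.9% lowered, and within the 15 libraries 66.2% were changed and 42.3% lowered. Sox10 fell by 2.88 ± 0.70 on the log2 scale (adjusted p = 0.00192, edgeR) and Mitf by 2.12 ± 0.54 (adjusted p = 0.00285). Oca2 fell by 3.27 ± 1.18 (adjusted p = 0.0227) and Kit by 1.32 ± 0.50 (adjusted p = 0.0277). The other 6 had log2 fold changes of -2.21 to -1.53 with adjusted p-values of 0.0876 to 0.204, and the median over the 10 was -2.03 beside -0.60 over all genes. Within the 15 libraries the median was -3.04 beside -0.64. Mitf fell by 2.46 ± 0.22 (adjusted p = 1.71e-07, edgeR), Sox10 by 2.97 ± 0.54 (adjusted p = 0.000238), Tyr by 3.99 ± 0.98 (adjusted p = 0.00294) and Slc45a2 by 3.95 ± 0.92 (adjusted p = 0.00174). Mitf and Sox10 were the 2 genes without overlap in either set of libraries, against 24.6% and 28.2% of all genes lower without overlap.

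The count for K5/K14 tumours was 10 without K5 tumour 1 (39.7% of all genes lowered), 3 without skin 3 (36.3%) and 2 without skin 1 (34.4%). The size of the melanosome gene differences rested largely on skin 1. Without it the median log2 fold change over the 10 was -0.57 in place of -2.03. Tyr was then at -0.29 (adjusted p = 0.872, edgeR), Tyrp1 at -0.43, Dct at -0.66, Pmel at -0.27, Mlana at -0.033 and Slc45a2 at -0.49, with Oca2 at -1.30 (adjusted p = 0.368) and Kit at -0.71 (adjusted p = 0.247). Mitf and Sox10 stayed at -2.07 and -2.75. Within the 15 libraries without skin 1, 6 of 10 were lowered beside 39.6% of all genes, with a median of -1.87, and Tyr was at -2.13 (adjusted p = 0.0457, edgeR) in place of -3.99. Tyrp1, Pmel, Mlana and Oca2 did not pass there. Mitf and Sox10 passed the test with every library left out in turn and under every other setting tried, with adjusted p-values of at most 0.00990 and 0.0123. Both tumour groups were set against the same 4 skin samples, so their fold changes are not independent of each other. Dividing by library totals, without the further scaling, moved the median of all genes to -1.13 in Ivl and -1.40 in K5/K14 tumours, and all 10 genes stayed below 0 under every scaling tried.

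**Figure D3:**
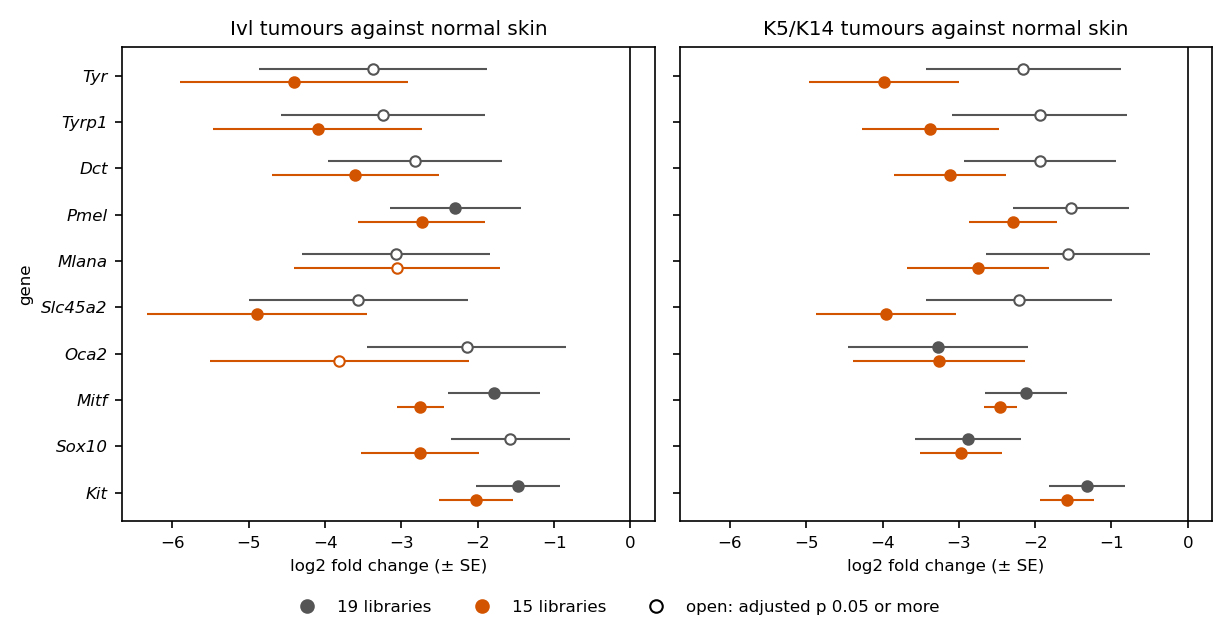
Log2 fold change with its standard error for each gene, Ivl tumours (left) and K5/K14 tumours (right) against skin, over 19 libraries (grey) and within 15 (orange). Filled points passed an adjusted p of 0.05. All points lie below 0, with 3 and 4 of 10 passing over 19 libraries (15.5% and 38.9% of all genes lowered). Within 15, 8 and 10 passed (32.7% and 42.3% of all genes lowered).

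Between the tumour groups no pigment gene passed the test. Comparing Ivl with K5/K14 tumours, log2 fold changes over 19 libraries ran from -1.504 (Mlana) to 1.30 (Sox10), with 7 below 0 and a smallest adjusted p of 0.2502 (edgeR), against 2.36% of all genes changed. The standard errors of the 10 genes were 0.46 to 1.24, so differences of that size could not be told from 0. Within the 15 libraries they ran from -0.94 (Slc45a2) to 0.21 (Sox10), with a smallest adjusted p of 0.730 and 0.41% of genes changed. K5 and K14 tumours, which the study merged, had fold changes above 0 for 9 of 10 genes over 19 libraries, with a median of 1.56 and values of 2.41 ± 1.58 for Tyr (adjusted p = 0.883, edgeR), 2.34 ± 1.39 for Tyrp1 and 1.91 ± 1.19 for Dct. Without K5 tumour 1 and the other 3 libraries set apart, the median was -0.03 and Tyr was at -0.13 ± 1.25 (adjusted p = 1, edgeR), with Tyrp1 at 0.50 ± 1.12 and Dct at 0.31 ± 0.92. Most of the higher K5 mean of the melanin enzymes thus came from 1 tumour. By edgeR, 0 of the 10 genes had an unadjusted p under 0.05 in either tumour comparison and either set of libraries, and over 19 libraries DESeq2 called 0 as well. The shares of all genes changed between K5 and K14 tumours were 0% over 19 libraries and 0.0532% within 15.

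Other genes of the pathway did not follow the pigment genes as a list. Of all 32031 genes, 6535 rose and 4980 fell in Ivl tumours and 7440 rose and 12476 fell in K5/K14 tumours. Within the 15 libraries, of 31971 genes, 7101 rose and 10465 fell, and 7647 rose and 13533 fell. The list counts below stand beside these shares, and no list was tested as a set. Of 25 further genes of the melanosome and its traffic, 7 rose and 2 fell in Ivl tumours over 19 libraries (7 and 9 within 15). In K5/K14 tumours 11 rose and 6 fell (11 and 11 within 15). Most of these work in lysosomes and related organelles of many cell types. Trpm1, one of the 25, varied more like the melanosome genes, at 44.8, 2.35, 10.2 and 1.64 CPM in skin 1 to 4. Among tumours it was highest in Ivl tumour 2 (19.9 CPM), K5 tumour 1 (8.67 CPM) and K14 tumour 1 (6.07 CPM). Rab38, a small GTPase for cargo to melanosomes, rose by 1.43 ± 0.22 on the log2 scale in Ivl tumours (adjusted p = 6.12e-05, edgeR) and by 1.65 ± 0.22 in K5/K14 tumours (adjusted p = 5.75e-06). Bloc1s3, a subunit of the trafficking complex BLOC-1, rose by 1.28 ± 0.20 and 1.38 ± 0.20 (adjusted p = 7.57e-05 and 1.26e-05). Mlph, which links melanosomes to myosin, fell by 1.52 ± 0.48 in Ivl tumours (adjusted p = 0.0201, edgeR), and Gpr143, a receptor of the melanosome membrane, fell by 2.61 ± 0.91 (adjusted p = 0.0317). The medians of the list were 0.06 and -0.05, beside -0.46 and -0.60 over all genes.

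Of 12 further regulators and receptors of the lineage, 1 rose and 3 fell in Ivl tumours over 19 libraries (1 and 6 within 15). In K5/K14 tumours 3 rose and 7 fell (3 and 8 within 15). Of all genes, 15.5% fell in Ivl and 38.9% in K5/K14 tumours (32.7% and 42.3% within 15). Snai2, which is also made by keratinocytes and fibroblasts, rose by 1.27 ± 0.25 on the log2 scale in Ivl tumours (adjusted p = 0.000475, edgeR) and by 1.44 ± 0.24 in K5/K14 tumours (adjusted p = 6.10e-05). Pax3, a regulator of Mitf, fell by 3.48 ± 0.64 in K5/K14 tumours (adjusted p = 0.000180) and was the 1 gene of the list that differed between tumour groups, higher in Ivl tumours by 2.40 ± 0.59 (adjusted p = 0.0393), but 0 of the 12 differed within the 15 libraries. Pax3 held 4.10 CPM in Ivl tumour 3, 2.73 CPM in Ivl tumour 6 and 1.43 CPM in Ivl tumour 2, 0.0953 CPM in K5 tumour 1 and 1.87 to 5.04 CPM in skin. Of 7 ligands for melanocytes in the table, 0 rose and 1 fell in Ivl tumours and 5 fell in K5/K14 tumours (5 and 6 within 15), among them Fgf2, by 1.18 ± 0.39 (adjusted p = 0.0257) and 1.51 ± 0.35 (adjusted p = 0.00141). Kitl, the ligand of Kit, held 62.5, 21.6, 38.8 and 31.5 CPM in skin 1 to 4 and 46.1 CPM in K5 tumour 1, the highest tumour, with 11.3 to 34.8 CPM in the other 14 tumours.

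Hair follicle genes followed the order of the melanosome genes at the top and the bottom of the skin samples, and in K5 tumour 1 they were above the other K5 tumours but well below skin 1, 3 and 4. The summed level of 17 genes of the hair matrix and inner root sheath, which are made while hair grows, was 5748, 61.0, 2563 and 2299 CPM in skin 1 to 4. In the same order as the melanosome genes, skin 1 was highest and skin 2 lowest. Skin 2 held 1.03 CPM of Krt25 against 205 to 627 CPM in the other skin samples. Among tumours the sum was highest in Ivl tumour 2 (3128 CPM), K14 tumour 1 (2240 CPM), Ivl tumour 3 (1338 CPM) and Ivl tumour 6 (1205 CPM). The former 2 also came next after K5 tumour 1 in the melanosome sum, whereas Ivl tumours 3 and 6 held 9.98 and 10.7 CPM of it, as much as Ivl tumours 4 and 5. In K5 tumour 1 the sum was 328 CPM, the highest of the K5 tumours (127 to 218 CPM in the others), with 5 of the 17 genes at 0 there and 5 to 8 in the other K5 tumours. Hoxc13, a regulator of hair keratins, held 7.21 CPM in it against 1.25 to 2.59 CPM in the other K5 tumours, and Tchh, which encodes trichohyalin, 183 CPM against 87.1 to 149 CPM. The inner root sheath keratins Krt25 and Krt71 and the hair cortex keratin Krt35 stood there at 0.0159, 0.254 and 0 CPM. Over all samples 0 of the 17 genes changed in Ivl tumours (median -1.52) and 4 fell in K5/K14 tumours (median -3.42), beside 15.5% and 38.9% of all genes lowered. Within the 15 libraries 2 and 4 of the 17 were lowered, beside 32.7% and 42.3% of all genes. The part of hair follicle content in the pigment results was not tested.

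**Figure D4:**
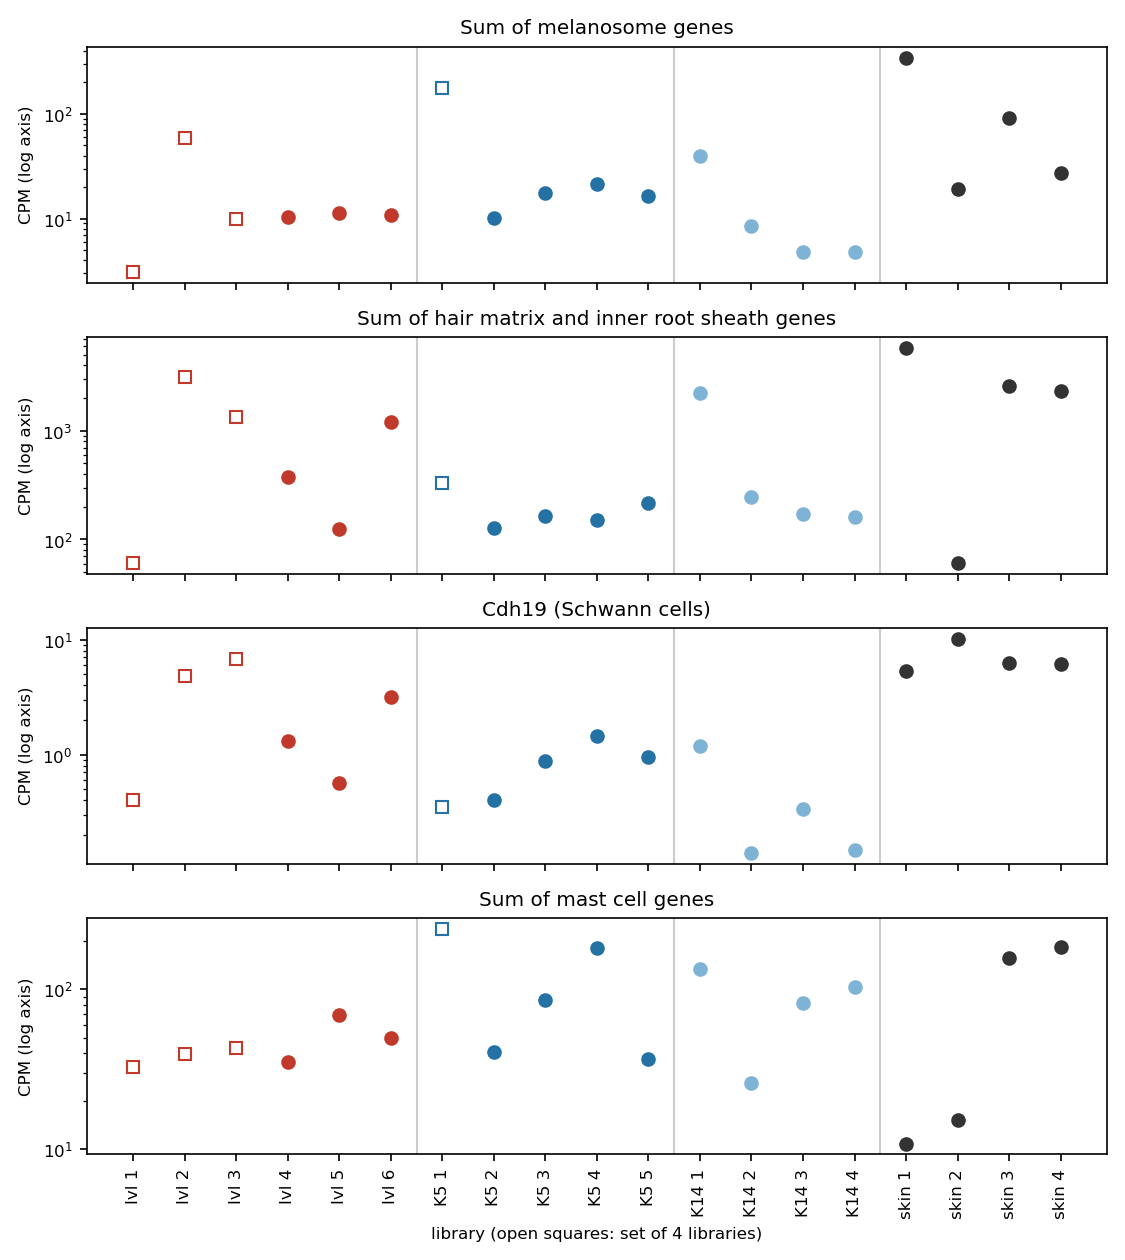
Summed CPM of the 7 melanosome genes, of 17 hair genes and of 11 mast cell genes, and CPM of Cdh19, in each library (log axes; open squares are the 4 libraries that stood apart). K5 tumour 1 is the highest tumour for melanosome genes (177 CPM) and mast cell genes (238 CPM) and low for Cdh19 (0.350 CPM), and skin 2 is low for melanosome, hair and mast cell genes. Skin 1, the highest library for melanosome and hair genes, is the lowest for mast cell genes (10.9 CPM).

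The Schwann cell gene Cdh19 was highest in the same tumours as Sox10, while the Schwann cell list as a sum was not. Cdh19, a cadherin of the Schwann cell lineage, held 5.33, 10.2, 6.29 and 6.15 CPM in skin 1 to 4. Among tumours it was highest in Ivl tumours 2, 3 and 6, at 4.79, 6.75 and 3.16 CPM, which were also the highest tumours for Sox10 (4.06, 7.43 and 2.02 CPM). In K5 tumour 1 it was 0.350 CPM, and in the other K5 and K14 tumours 0.138 to 1.45 CPM. Of 10 Schwann cell markers, 1 rose and 1 fell in Ivl tumours, and 1 rose and 7 fell in K5/K14 tumours (1 and 6, and 1 and 7, within 15). Of all genes, 15.5% fell in Ivl and 38.9% in K5/K14 tumours (32.7% and 42.3% within 15). In K5/K14 tumours Cdh19 fell by 3.43 ± 0.63 on the log2 scale (adjusted p = 0.000185, edgeR). The one that rose in both was Mal, which keratinocytes also make, and with it the summed list was 137 to 232 CPM in skin and 70.0 to 357 CPM in tumours. It was highest in Ivl tumour 4 (357 CPM), and K14 tumour 3 held 288 CPM where Sox10 was at 0.216 CPM. The part of Schwann cells in the Sox10 result was not tested.

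Mast cell genes bear on Kit and Mitf. The summed level of 11 mast cell markers was 10.9, 15.3, 158 and 185 CPM in skin 1 to 4, an order unlike that of Kit (44.2, 7.00, 22.5 and 13.7 CPM). Skin 1, highest for Kit, held 0.593 CPM of the mast cell protease gene Cpa3, against 35.5 and 40.2 CPM in skin 3 and 4. In tumours the sum was 25.8 to 238 CPM with the highest value in K5 tumour 1, also the highest tumour for Kit, and 180 CPM in K5 tumour 4. Of the 11 markers, 3 rose and 1 fell against skin in each tumour group. Of all 32031 genes, 6535 rose in Ivl and 7440 in K5/K14 tumours. Macrophage markers (10 genes) summed to 115 to 1505 CPM in skin and 184 to 900 CPM in tumours. Over 19 libraries 0 of these changed in Ivl and 1 was lowered in K5/K14 tumours, and 2 and 4 were lowered within 15. Of all genes, 15.5% and 38.9% were lowered over 19 libraries, and 32.7% and 42.3% within 15. The part of either cell type in the Kit and Mitf results was not tested.

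Across the 15 tumours, log2 levels of the 3 melanin enzymes ran closely together, and those of the other melanosome genes less so. As a description, and with a shared library and the batch adjustment behind each point, the correlation (Pearson's r) of each gene with the mean log2 level of the other melanosome genes was 0.984 for Dct, 0.977 for Tyrp1 and 0.974 for Tyr. It was 0.897 for Pmel, 0.879 for Slc45a2, 0.854 for Mlana and 0.634 for Oca2. Mitf, Sox10 and Kit correlated with the mean of the 7 at 0.703, 0.684 and 0.595. Within the 11 tumours outside the set the enzymes stayed at 0.929 to 0.962, Pmel was at 0.910, Mlana at 0.868, Slc45a2 at 0.674 and Oca2 at 0.718, and Sox10 was at 0.805, Mitf at 0.520 and Kit at -0.171. Of 14938 genes ranked by this measure over the 15 tumours, those most like the 7-gene mean outside the members were Kcnn1 (0.884), Ptgds (0.879), Ccl27a (0.875), Tyk2 (0.863) and Cnp (0.855). Ptgds, which encodes a prostaglandin D synthase, held 7.45 CPM in K5 tumour 1 against at most 2.84 CPM in the other 14 tumours. It was also near the top within the 11 tumours, ranking 4 of 14938 at 0.892, whereas Kcnn1 ranked 242 there.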

How the data were processed

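As the labels and the study describe, the authors trimmed reads with Trim Galore, aligned them with HISAT2 2.1.0 to GRCm38, counted them per gene with featureCounts (Subread 1.6.3) and adjusted the counts for a sequencing batch with ComBat-seq. The deposited values are therefore estimated counts, although whole numbers, and rounding changed 0 values. Plain counts had been assumed, but a test for counts still applied. A table of 34807 genes was analysed, of which 32031 reached 5 counts in some library and were kept, as in the study. In all, 34694 identifiers matched GENCODE annotation on GRCm38 and 113 did not. After TMM scaling the test was the quasi-likelihood F test of edgeR 4.0.16 under R 4.3.3, two-sided, adjusted by Benjamini-Hochberg over all genes. Each main fit held all 19 libraries, and fits with libraries left out held only those that remained. A gene counted as changed at an adjusted p under 0.05. Standard errors were derived from the fold change and F. The study used DESeq2, run here (1.42.0) as an alternative. Log2 CPM used a prior count of 2. Depth was 45715309 to 72609771 counts per library. At this depth 1 count is worth a few hundredths of a CPM, so levels near that rest on single counts, and the error of the batch adjustment is in no standard error.

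The genes, gene lists and the set of 4 libraries were chosen with earlier results of these data known. A rule picked genes outside the members, and only some of those it picked are given. It took the 2 per direction of a list with the smallest adjusted p and the 8 most like the melanosome mean (the first 5 are given). Defining markers of other cell types were named as well. Slc24a5, Kitl, Trpm1, Mc1r, Gpnmb and the levels of Pax3 and Gpr143 in single libraries were chosen after their values were seen. Libraries of a group are separate tumours or skin samples per the labels, and a chi-square test found no pair alike (at least 25.9 per degree of freedom). A list of 6 mammary gland markers summed to 6.08 to 63.1 CPM in tumours and 33.3 to 71.5 CPM in skin. Upstream sequences came from RefSeq (GRCm38.p6). Alternatives were other scaling, filters and tools, a replicate block, a covariate for the 4 libraries, each library left out, and, added after the data were seen, skin 1 left out within the 15. A gene of the Schwann cell list is not reported here by name. The fits were tested on simulated data.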

Additional observations from a re-analysis of the deposited data

Results flagged for a closer look

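Of 50 groups of 4 to 9 libraries examined, each for 1 gene, 8 held a library far from the others. About 1 in 20, or 2.5, would be flagged by chance if the groups were independent, which they are not. The genes move together, and the K5/K14 group contains the K5 and K14 groups. The 8 against 2.5 is therefore no measure of an excess over chance. In 5 of the 8 the library was K5 tumour 1, 1 of the 4 libraries that stood apart. It held 15.1 CPM of Tyr (the next K5 tumour held 0.700 CPM), 42.7 CPM of Pmel (next 7.02 CPM), 7.40 CPM of Mlana (next 0.835 CPM) and 16.98 CPM of Mitf, far from the K5 tumours (next 5.85 CPM) and from all 9 K5/K14 tumours (next 7.98 CPM). Ivl tumour 2, of the same 4 libraries, held 17.9 CPM of Pmel (next Ivl tumour 4.47 CPM). K5 tumour 2 was far below the others for Oca2, at 0.0253 CPM, which is 1 count (next 0.248 CPM). K14 tumour 1 held 1.61 CPM of Sox10 (next K14 tumour 0.254 CPM).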

How the results depend on the processing

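Against skin, the 10 genes stayed below 0 under every alternative, but both the sizes and the number that passed moved. Without skin 1 the median log2 fold change over the 10 went from -2.56 to -1.53 in Ivl tumours and from -2.03 to -0.57 in K5/K14 tumours. The counts are given with the share of all tested genes lowered under the same setting. For Ivl tumours 3 of 10 passed (15.5% of all genes lowered), and 8 with DESeq2 (18.1%), 6 with DESeq2 size factors (21.3%) and 9 with library totals (48.3%). The count was 7 with a stricter filter on low counts (19.4%), 0 with a replicate block (7.04%) and 9 with a covariate for the 4 libraries (25.2%). Within the 15 libraries 8 passed (32.7%), and 6 within the 15 without skin 1 (31.6%). With 1 library left out 0 to 8 passed (9.87% to 24.8%). For K5/K14 tumours 4 passed (38.9%), and 6 with DESeq2 (38.0%), 4 with size factors (42.8%) and with the stricter filter (40.8%), and 10 with library totals (64.5%). The count was 2 with a replicate block (34.8%) and 9 with the covariate (41.2%). Within the 15 libraries 10 passed (42.3%), and 6 within the 15 without skin 1 (39.6%). With 1 library left out 2 to 10 passed (33.9% to 41.2%). Leaving out skin 1 within the 15 was chosen after the data were seen. The covariate, like the set itself, follows from the data and not from the labels, and the cause of these changes was not tested. Between tumour groups 0 of the 10 passed under any of these settings.

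Of all genes, 11515 changed in Ivl tumours against skin, and 18328 with library totals and 17566 within the 15 libraries (9165 to 14757 with 1 library left out). Between Ivl and K5/K14 tumours 756 changed, and 2161 with DESeq2, 46 with a replicate block, 131 within the 15, 449 with the covariate, and 127 (without K5 tumour 1) to 1328 (without K14 tumour 1) otherwise. Between K5 and K14 tumours 0 changed, and 174 with DESeq2 and 17 within the 15 (0 to 0 with 1 library left out). Raised genes made up, of all that changed against skin in Ivl tumours, 56.8% with TMM, 45.6% with DESeq2 size factors, 15.7% with totals and 40.4% within the 15, and in K5/K14 tumours 37.4%, 33.0%, 13.6% and 36.1%.

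Reversals were confined to the tumour comparisons, where no gene passed. Ivl against K5/K14 tumours: with a replicate block Tyr was at 0.52, Tyrp1 at 0.18, Dct at 0.31, Slc45a2 at 0.67 and Kit at 0.20, with totals Kit was at 0.053, within the 15 Mitf was at -0.30 and Oca2 at -0.56 (-0.33 and -0.60 without skin 1), and with the covariate Mitf was at -0.35. With 1 library left out the ranges were -2.53 to 0.62 (Tyr), -2.49 to 0.13 (Tyrp1), -1.84 to 0.29 (Dct), -2.71 to 0.39 (Slc45a2), -0.48 to 0.11 (Kit) and -0.32 to 0.67 (Mitf). K5 against K14 tumours: with a replicate block Oca2 was at 0.84, within the 15 Tyr was at -0.13, Pmel at -0.022, Mitf at -0.040, Kit at -0.29 and Slc45a2 at -0.56 (without skin 1 Tyr at -0.15, Pmel at -0.038, Mitf at -0.052, Kit at -0.30 and Slc45a2 at -0.57), and with the covariate Mitf was at -0.00646, Kit at -0.19 and Slc45a2 at -0.038. With 1 library left out the ranges were -0.13 to 4.51 (Tyr), -0.022 to 1.88 (Pmel), -0.039 to 0.85 (Mitf), -0.29 to 0.40 (Kit), -0.55 to 4.27 (Slc45a2) and -0.89 to 0.76 (Oca2).

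The replicate numbers do not pair the samples. Of 25 same-numbered pairs, 9 had deviations from the group means that correlated over 0.1, with a median of -0.01 (-0.48 to 0.39). Low levels limit Oca2, Slc45a2 and Mlana most, since several tumours held 0 or few counts.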
